A study of Mus musculus with 20 samples.

Results

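The regions described here are stretches of chromatin that were closed by peak call in wild-type (WT) C2C12 myoblasts at day 0 (D0) and open by peak call at day 5 (D5) in both media. The peaks of all 20 deposited lists were merged on any overlap of 1 bp or more, and a region was taken as a member when a peak overlapped it in all 4 WT D5 lists and in neither WT D0 list. The rule chose 701 of 101352 merged regions. They are called lasting gained regions, where lasting refers to the D5 lists of both media, since the rule did not ask for a call at day 1 (D1).

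C2C12 is a mouse myoblast line that can be made to differentiate into multinucleated muscle cells. The series followed WT cells and cells without Setd2 (KO), the gene of the methyltransferase that places H3K36me3 on transcribed genes, to ask what the availability of methionine does to chromatin as the cells differentiate. The 10 groups were WT D0, KO D0, and WT and KO at D1 and at D5, each with methionine restricted (MR) or in control medium (CTL), with 2 libraries in each group. WT libraries were numbered as replicates and KO libraries came from 2 lines, KO_1 and KO_2, which recur in every KO group, so the spread within a KO group holds the difference between lines. The labels name no methionine concentration, no differentiation medium and no separate cultures of WT, and a peak list cannot check the Setd2 genotype.

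ATAC-seq inserts adapters into open DNA with a transposase, and a peak marks a place where inserted fragments pile up above the background. Myoblasts become muscle cells under the transcription factors MyoD and myogenin, which bind E-boxes with the letters CANNTG and work together with MEF2 proteins, and with TEAD proteins at MCAT elements. Serum response factor binds CArG boxes in the promoters of actin and other contractile genes. Their targets include the actins, myosins and troponins of the sarcomere, the acetylcholine receptor, the calcium release machinery and the microRNAs miR-1 and miR-133.

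Of the 45 members that overlapped a RefSeq promoter window, several lay at the start of a muscle gene. The 8 promoters below are shown because a member covers part of each, and because their genes span the roles that recur among the members: a myogenic factor (Myog), actins (Acta1, Actc1), a troponin (Tnnt2), a thin filament nucleator (Lmod2), a fast myosin light chain (Mylpf), a calcium channel subunit (Cacna1s) and the muscle caveolin (Cav3). Each run is the 250 bases before the annotated start, 5′ to 3′ on the strand of the gene, from RefSeq on GRCm38.p6. Capitals mark every E-box (CANNTG), MEF2 and CArG match found by letter search on both strands.
Myog, chr1:134289754-134290003, plus strand: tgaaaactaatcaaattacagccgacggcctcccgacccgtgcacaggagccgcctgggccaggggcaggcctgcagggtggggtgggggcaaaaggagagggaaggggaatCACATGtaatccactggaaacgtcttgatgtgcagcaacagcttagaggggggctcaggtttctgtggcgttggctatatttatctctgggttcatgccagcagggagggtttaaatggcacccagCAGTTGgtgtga
Acta1, chr8:123894776-123895025, minus strand: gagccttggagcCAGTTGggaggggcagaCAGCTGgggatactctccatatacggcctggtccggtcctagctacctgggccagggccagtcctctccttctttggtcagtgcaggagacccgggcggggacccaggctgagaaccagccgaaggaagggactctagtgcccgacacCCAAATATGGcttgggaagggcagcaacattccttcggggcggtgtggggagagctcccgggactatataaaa
Actc1, chr2:114052876-114053125, minus strand: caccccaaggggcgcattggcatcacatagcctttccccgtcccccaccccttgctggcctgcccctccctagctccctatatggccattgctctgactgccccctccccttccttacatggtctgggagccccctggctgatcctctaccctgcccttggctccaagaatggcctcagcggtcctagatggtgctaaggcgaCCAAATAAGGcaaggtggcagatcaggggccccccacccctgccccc
Tnnt2, chr1:135836084-135836333, plus strand: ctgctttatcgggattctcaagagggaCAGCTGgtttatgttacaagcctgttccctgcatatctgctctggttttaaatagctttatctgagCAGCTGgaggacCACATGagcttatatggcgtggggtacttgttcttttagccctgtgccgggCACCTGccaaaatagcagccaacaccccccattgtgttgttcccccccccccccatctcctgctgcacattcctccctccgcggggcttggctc
Lmod2, chr6:24597521-24597770, plus strand: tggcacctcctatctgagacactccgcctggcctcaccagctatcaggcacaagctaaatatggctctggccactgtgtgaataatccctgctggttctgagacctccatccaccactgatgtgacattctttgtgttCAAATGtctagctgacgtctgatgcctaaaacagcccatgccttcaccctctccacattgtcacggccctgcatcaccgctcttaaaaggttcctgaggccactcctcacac
Mylpf, chr7:127211358-127211607, plus strand: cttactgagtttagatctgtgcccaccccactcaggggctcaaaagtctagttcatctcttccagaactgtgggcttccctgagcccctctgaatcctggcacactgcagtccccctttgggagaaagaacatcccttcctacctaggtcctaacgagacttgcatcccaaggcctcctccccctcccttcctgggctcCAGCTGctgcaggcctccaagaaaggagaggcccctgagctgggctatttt
Cacna1s, chr1:136052561-136052810, plus strand: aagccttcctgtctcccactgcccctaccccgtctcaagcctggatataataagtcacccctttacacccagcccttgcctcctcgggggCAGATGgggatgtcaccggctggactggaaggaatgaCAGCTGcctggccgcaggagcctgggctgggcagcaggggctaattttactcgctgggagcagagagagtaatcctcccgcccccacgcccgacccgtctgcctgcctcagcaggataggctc
Cav3, chr6:112459255-112459504, plus strand: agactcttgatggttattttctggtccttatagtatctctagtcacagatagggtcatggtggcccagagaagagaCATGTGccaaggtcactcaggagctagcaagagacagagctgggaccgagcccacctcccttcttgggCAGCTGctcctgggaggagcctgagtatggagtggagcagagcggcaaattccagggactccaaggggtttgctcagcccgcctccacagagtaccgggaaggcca

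The E-box CAGCTG, which reads the same on both strands, stands in the Acta1, Tnnt2, Cacna1s, Mylpf and Cav3 runs. The Myog run holds 2 E-boxes of other letters, and the Actc1 run holds a CArG match and no E-box. Over all 52 distinct promoter windows that the members overlap, of 47 genes, 49 (94.2%) hold CANNTG in the 250 bases, against 66.3% of all 32585 windows and 52.3% of the 7108 windows overlapped by regions called in all 4 WT D5 and both WT D0 lists, which are called kept regions below. CAGCTG occurred in 25 of the 52 (48.1%), against 13.1% of all windows and 12.2% of those at kept regions. The MCAT letters CATTCC occurred in 11 (21.2%), against 12.6% and 9.21%, and a MEF2 match in 6 (11.5%), against 2.84% and 0.914%. CArG matches were found in 2 windows (3.85%, against 1.48% and 1.21%) and the AP-1 letters TGANTCA in 3 (5.77%, against 6.78% and 3.95%). Base composition moved with these shares: the median number of CG pairs in the 250 bases was 4 at the members, 19 at kept regions and 6 in all windows, and its part in the motif shares was not tested. A match is a run of letters and not a measured binding site.

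The lists held 20847 to 69881 peaks in 18 libraries. KO_1 at D5 stood apart with 644 peaks in CTL and 1881 in MR, calling 3.87% and 10.6% of the kept regions, so calls at D5 without Setd2 are given for KO_2 alone, with 1 library in each medium and no replicate check. KO_2 called 84.8% of the kept regions at D5 in CTL and 75.8% in MR. Read depth was not used here, and a longer list calls more regions of every kind. For that reason each share of members stands beside the share of all 51764 regions that were in neither WT D0 list, called the background below, and beside the kept regions. Regions that only KO lists called count in the background and cannot be members, which raises the background of the KO lists by construction. The same holds for regions that only WT D1 lists called and the background of those lists.

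The values that chose the members are given as a description. The weakest of a member's 4 WT D5 peaks had a −log10 q-value, the authors' own significance value of a peak, of 1.39 to 19.5 with a median of 3.11, and in 104 members it was under 2. Just outside the rule lay 384 regions with a peak in all 4 WT D5 lists and in 1 WT D0 list, whose D0 peak had a median −log10 q-value of 3.30 (1.30 to 14.7), and 607 regions in 3 WT D5 lists and no WT D0 list. The CTL lists, which are shorter at D5, set most of the limit: 872 regions absent from both WT D0 lists were in both WT D5 CTL lists, and 4070 were in both WT D5 MR lists. With each WT replicate left out, 1038 (without replicate 1) and 1740 (without replicate 2) regions met the rule. Members were narrow, with a median width of 260 bp (74 to 1337 bp), against 483 bp for kept regions and 172 bp for all regions. By fold enrichment, a ratio over background given by the authors and ranked here only within each list, their mean percentile over the WT D5 lists had a median of 45.2, against 66.8 for kept regions.

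In the full lists most lasting gained regions were already open in WT at D1, which did not hold for shorter lists of equal length (below). In CTL, WT replicate 1 called 587 of the 701 (83.7%) and replicate 2 called 507 (72.3%), where the background was 26.0% and 10.9%. Under MR, replicate 1 called 534 (76.2%) and replicate 2 called 478 (68.2%), where the background was 42.3% and 23.9%. Both CTL lists called 493 members (70.3%, background 9.19%) and both MR lists called 463 (66%, background 20.5%). The members exceeded the background in each of the 4 lists, by 57.7 and 61.4 percentage points in CTL and by 33.9 and 44.3 in MR. The lists of replicates 1 and 2 held 60173 and 45545 peaks in CTL and 69881 and 57676 in MR. Shares at equal list length are given below. All 4 WT D1 lists called 403 members (57.5%, background 5.37%), and no WT D1 list called 65 (9.27%, background 43.6%).

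**Figure D1:**
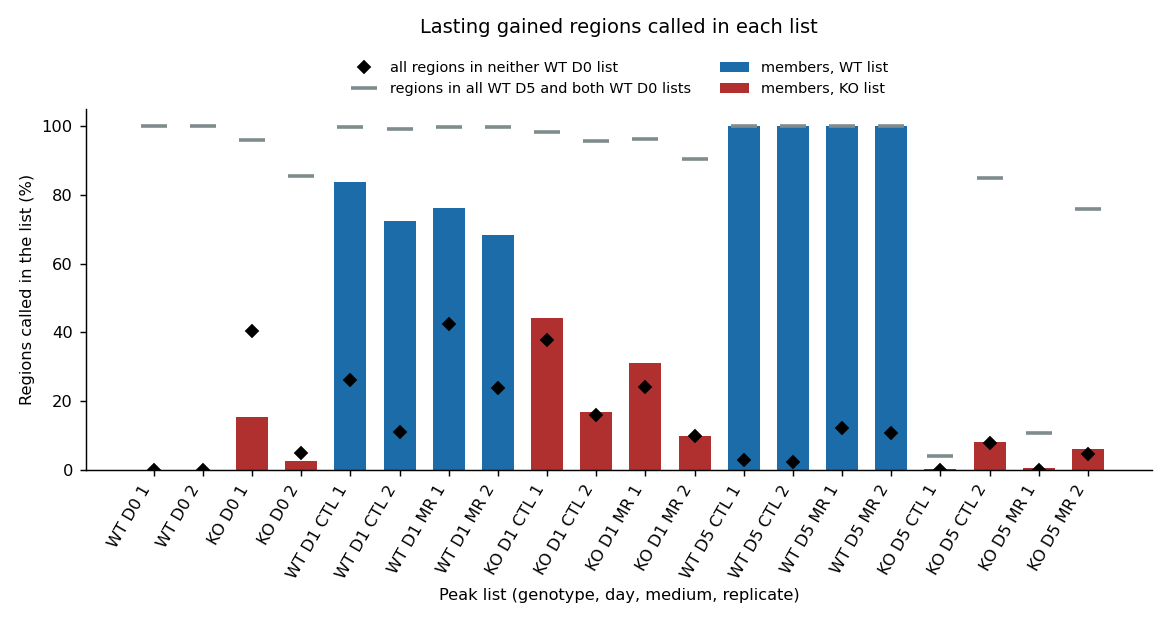
Percent of the 701 members called in each of the 20 lists (bars, WT blue and KO red), beside all 51764 regions in neither WT D0 list (black diamonds) and the 15968 kept regions (grey dashes); x axis, list; y axis, regions called in percent. The WT D0 and WT D5 bars are 0 and 100 by the rule, the WT D1 bars lie at 68.2% to 83.7%, above their diamonds, and the KO_2 bars at D1 and D5 lie near theirs.

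The D1 gains were also followed forward. Of 4758 regions that both WT D1 CTL lists called and neither WT D0 list did, 493 (10.4%) were members, and of 10601 such regions in MR 463 (4.37%) were. Among 2782 regions gained in all 4 WT D1 lists 403 (14.5%) were members, and among 22583 regions in no WT D0 or D1 list 65 (0.288%) were. These shares depend on the length of the D5 CTL lists. The longer WT D5 MR lists together called 31.3% of the CTL gains, 20.5% of the MR gains and 43% of the gains in all 4 WT D1 lists, and the WT D5 CTL lists called 11.7%, 4.91% and 15.9%.

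The members called at D1 also depend on how deep into each list a call is accepted. When only the 30000 peaks with the highest −log10 p-value of each list were used for the later calls, an alternative chosen after seeing the data, WT D1 CTL called 273 (38.9%) and 285 (40.7%) members and WT D1 MR called 138 (19.7%) and 133 (19%). The background was then 4.09% and 3.16% in CTL and 2.77% and 2.67% in MR, and kept regions were called at 90.7% to 94.1%. At equal list length both CTL libraries lay above both MR libraries and the groups did not overlap, in the members as in the background. The WT D5 CTL lists set most of the limit of the rule, so the choice may favour calls in CTL. How large that part is was not tested. In the full lists the medium groups overlapped, with MR replicate 1 above CTL replicate 2. With the 20000 strongest peaks the values were 19.8% and 21.1% in CTL and 5.85% and 6.28% in MR, over a background of 1.24%, 0.902%, 0.591% and 0.553% in the same order. A comparison of 2 against 2 libraries allows no exact two-sided p under 0.333, and this difference could not pass a test.

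The members that only 1 medium called in WT at D1 were chosen after their values were seen. Both CTL lists and neither MR list called 41 members (5.85%, background 1.82%), and both MR lists and neither CTL list called 20 (2.85%, background 10.1%). The 41 include the promoter members of Actc1, Mybph (a myosin-binding protein), Art1 (a muscle ADP-ribosyltransferase) and Rbm24 (an RNA-binding splicing regulator of muscle), the member at the start of Mylpf, 1 of the 4 members in Scn4a (the muscle sodium channel), a member in Dtna (dystrobrevin), and 4 members of the Mir1a-1hg chain described below. The 20 include members in Cdkn1a (the p21 inhibitor of cyclin-dependent kinases), at an end of Dmpk (myotonic dystrophy protein kinase) and Gpt, in Syne1, and near Mmp2.

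Calls by KO libraries at D1 were fewer. KO_1 called 309 members (44.1%, background 37.8%) in CTL and 217 (31%, background 24.0%) in MR. KO_2 called 117 (16.7%, background 15.9%) in CTL and 69 (9.84%, background 9.83%) in MR. Both lines together called 99 members (14.1%, background 8.74%) in CTL and 53 (7.56%, background 5.32%) in MR. Of the kept regions, which are wider and rank higher than the members, KO_1 called 98.2% in CTL and 96.3% in MR and KO_2 called 95.8% and 90.4%, where the WT D1 lists called 99.3% to 99.9%. In KO_2 the share of members was near the background, and in KO_1 it was above it by 6.27 points in CTL and 6.96 in MR. When WT replicate 2 was left out, 1740 regions met the rule, and both KO lists called 23.3% of them in CTL (background 11.7%) and 19.5% in MR (background 7.63%).

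The lines differed from each other, in the background as in the members. KO_1 called 119 members (17%) in both media at D1 that KO_2 called in neither, against 6736 (13%) of the background regions. KO_2 called 4 (0.571%) that KO_1 called in neither, against 774 (1.5%). At D0 the KO lists called 107 (KO_1, 15.3%, background 40.5%) and 18 (KO_2, 2.57%, background 4.74%) members, and both lines called 15 (2.14%, background 3.46%). In both lines the share of members at D0 was below the background. At least 1 KO D0 list called 41.7% of the background regions. Those that only KO lists called cannot be members, so the lower share is in part set by the rule, and how large that part is was not tested.

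The KO lists were also compared at equal length. With the 30000 strongest peaks, KO_1 called 15% of members in CTL (background 6.43%) and 15.4% in MR (background 7.32%), and KO_2 called 5.71% (background 5.48%) and 7.13% (background 6.42%). The 4 WT D1 libraries called 19% to 40.7% over a background of 2.67% to 4.09%. With the 20000 strongest peaks and the same members, KO_1 called 6.85% and 6.7% (background 2.25% and 2.62%), above the 5.85% and 6.28% of WT MR, and KO_2 called 2.85% and 3.42% (background 1.98% and 2.34%). With members defined anew from the 20000 strongest peaks of each list, 1408 regions met the rule. WT D1 lists then called 37.7% and 42.2% of them in CTL and 33.7% and 35.7% in MR, over a background of 12.4% to 14.6%. KO_1 called 33.2% and 34.0% (background 20.4% and 23.4%), in the range of the WT MR lists but over a higher background. KO_2 called 16.7% and 27.1% (background 17.6% and 22%).

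**Figure D2:**
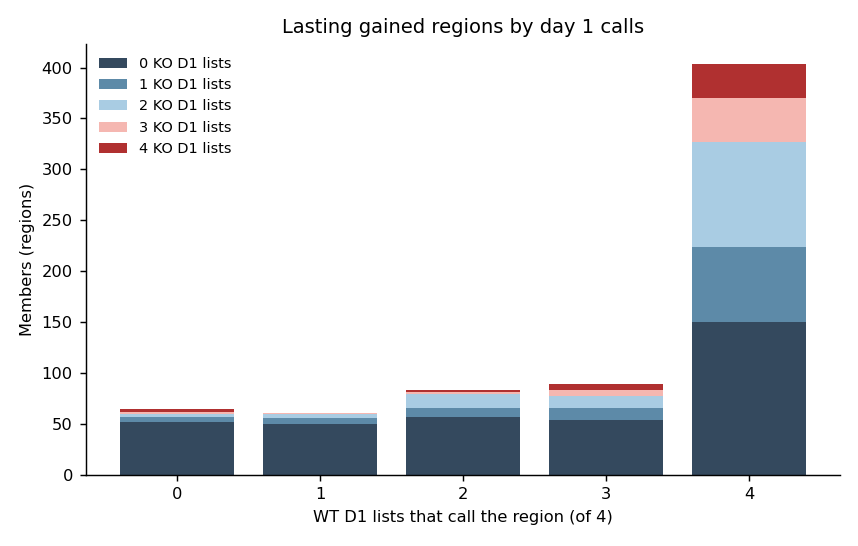
Number of members (y axis) by how many of the 4 WT D1 lists call them (x axis), with colours for how many of the 4 KO D1 lists do. Of the 403 members in all 4 WT D1 lists, 150 were in no KO D1 list and 33 were in all 4.

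Region by region, genotype at D1 was compared with a two-sided exact permutation test of the calls in 4 KO and 4 WT libraries, which has 70 arrangements and a smallest p of 0.0286. Only a region called in exactly 4 of the 8 libraries can reach that p. After Benjamini-Hochberg adjustment over the 8545 such regions, none passed (background 0%), and the smallest adjusted p in the exact test was 0.0643. At an unadjusted exact p of 0.0286, 150 members were called in all 4 WT and no KO library at D1, against 3044 of all regions (3%), and 3 members were called in all 4 KO and no WT library, against 753 of all regions (0.743%). Of the 179 members called in exactly 4 libraries 153 were split by genotype, as were 3797 of the 8545 regions. The members were chosen through WT lists alone, at other days, so the choice favours calls in WT, and these counts are a description. The 3 members called in KO alone at D1 lay in Clec16a and Xxylt1 and 213007 bp from Aldh8a1, and KO_2 called all of them at D5 in both media. KO libraries of the 2 media come from the same lines and are not independent, so this p measures the spread among these libraries only. With the 30000 strongest peaks 49 members reached the unadjusted p with fewer calls in KO.

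Restriction was tested in the same way over 4 MR and 4 CTL libraries at D1. No region passed the adjusted threshold (background 0%) and the smallest adjusted p in the exact test was 1. At an unadjusted exact p of 0.0286, 0 members were called in 1 medium alone, against 39 of all regions in CTL alone (0.0385%) and 103 in MR alone (0.102%). The test pools both genotypes, and the members named above as called in 1 medium were so in WT.

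At D5, KO_2 called 56 members (7.99%, background 7.69%) in CTL and 43 (6.13%, background 4.47%) in MR. Either list called 72 members (10.3%, background 9.36%), both called 27 (3.85%, background 2.8%), CTL alone called 29 (4.14%, background 4.89%) and MR alone 16 (2.28%, background 1.67%), all near the background. In full, 354 members (50.5%, background 34.1%) were in no KO list of any day. Another count, of members in no list other than the 4 that the rule required, was 51 (7.28%), where 2.82% of the background was in no WT D1 and no KO list. KO_1 at D5 called 1 member in CTL and 4 in MR, from the short lists described above. With WT replicate 2 left out, its D0 and D5 lists no longer counted in the rule, and 1740 regions met it. Of these, KO_2 at D5 called 16.2% in CTL (background 9.56%) and 11.2% in MR (background 5.54%). The closeness of its share to the background depended on which lists the rule used, and the cause was not tested. KO_2 called 76 members at D1 and not at D5 (10.8%, background 14.2%) and 18 at D5 and not at D1 (2.57%, background 3.41%).

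Muscle genes recurred among the genes near members. Across 10 gene lists of 242 genes, 53 genes (21.9%) had a member in the gene or within 10 kb, against 584 of 21627 protein-coding genes (2.7%), and 22 (9.09%) had one within 1 kb of an end, against 69 (0.319%). These genes account for 81 members. Of the 81, 44 (54.3%) were in all 4 WT D1 lists, like 57.9% of the other 620 members. No KO D1 list called 55 of the 81 (67.9%), against 49.7% of the others, and all 4 KO D1 lists called 1 (1.23%), against 6.94%. KO_1 at D1 called 28.4% of the 81 in CTL and 14.8% in MR, against 46.1% and 33.1% of the others. KO_2 at D1 called 4.94% in each medium, against 18.2% and 10.5%. At D5 either KO_2 list called 2 of the 81 (2.47%), against 11.3% of the others. The lists were chosen with results of these data known, and no test was made on them.

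**Figure D3:**
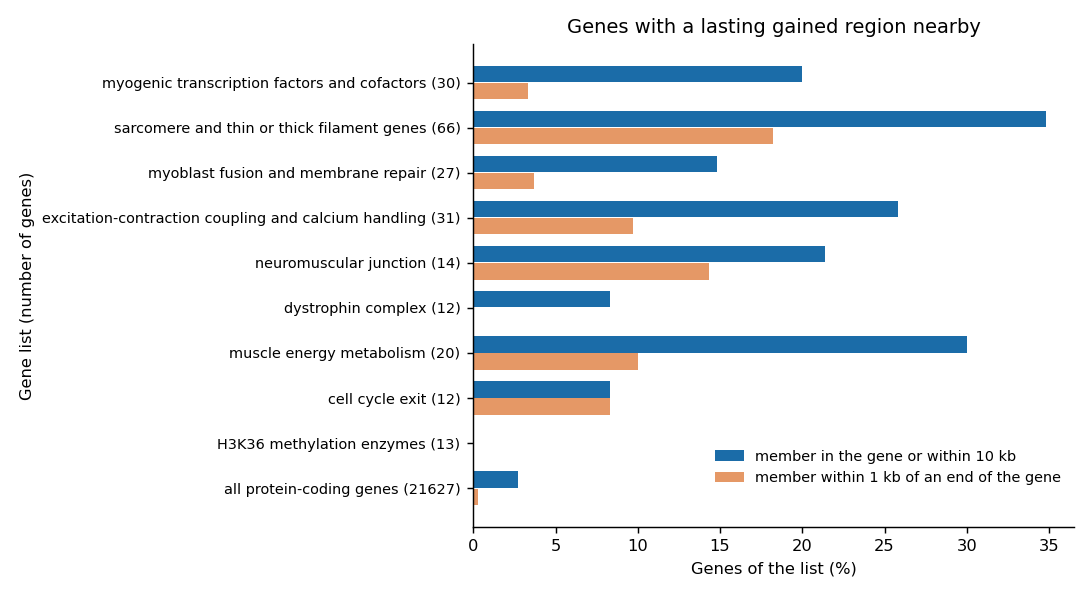
Percent of the genes of 9 lists and of all protein-coding genes (x axis; y axis, list with its number of genes) with a member in the gene or within 10 kb (blue) or within 1 kb of an end of the gene (orange). Sarcomere genes reach 34.8% and 18.2%, all protein-coding genes 2.7% and 0.319%, and the H3K36 methylation enzymes 0%.

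Sarcomere genes held the most members. Of 66 listed genes of the thin and thick filaments, 23 had a member within 10 kb and 12 within 1 kb of an end, and these genes accounted for 36 members, 22 of them in both WT D1 CTL lists, 22 in both WT D1 MR lists, 27 in no KO D1 list and 0 in all 4. Longer genes offer more room for a member. The median gene length was 23.0 kb for the sarcomere list and 17.3 kb for all protein-coding genes, but 53.9 kb for the myogenic factors, 58.0 kb for fusion, 60.1 kb for excitation-contraction coupling and 57.5 kb for the dystrophin complex, and the part of length in their counts was not tested. The highest ranked of all 701 members covered the start of Lmod2 (leiomodin, which nucleates actin filaments), at chr6:24597518-24597886. The authors' fold enrichment of its peak was 5.56 and 5.62 in the WT D5 CTL lists and 11.8 and 10.4 in the MR lists, and 7.02, 6.77, 9.27 and 7.59 in WT D1 CTL replicates 1 and 2 and MR replicates 1 and 2, with KO_1 at 3.96 in CTL and 4.74 in MR and no call in KO_2. Folds of different lists are on different backgrounds and are not compared as levels.

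Skeletal alpha actin, Acta1, had 3 members. The one over its promoter, chr8:123894659-123895067, had a peak in all 4 WT D1 lists and in no KO list, with folds of 4.30, 3.92, 5.64 and 4.83 in the D5 lists. An upstream member 567 bp from the gene was in all 4 WT D1 lists and in KO_2 CTL at D1. The last, 2379 bp beyond the other end, was in no D1 list. Cardiac actin, Actc1, which embryonic muscle also uses, had a promoter member at chr2:114052712-114052988 that both CTL lists and neither MR list called in WT at D1, and no KO list called it.

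Among the troponins, the calcium switch of the thin filament, Tnnc1 had 4 members within 7.55 kb on chromosome 14. Of these, 3 were in all 4 WT D1 lists and none in a KO D1 list. The other, over the Tnnc1 promoter, was in WT D1 MR replicate 2 alone at D1. Tnnt2, whose promoter is printed above, had a promoter member in all 4 WT D1 lists and no KO list, and a second member 1634 bp away that KO_1 also called in both media at D1. Tnni1, Tnni2 and Tnnt3 each had 1 member in all 4 WT D1 lists, and only that of Tnnt3 was in a KO D1 list, KO_1 in both media.

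Among the myosins, Myh3, the embryonic heavy chain, had a member at rank 10, 3443 bp from the gene at chr11:67105735-67106116, in all 4 WT D1 lists and no KO list. It is the first of 4 members within 20.1 kb, of which none was in a KO D1 list. In WT at D1 only 1 of the 4 was in both CTL lists and 1 in both MR lists. The light chain gene Myl4 had 2 members in all 4 WT D1 lists that KO_1 also called in CTL, and 1 of them in MR. Myl1 had 1 member in 3 WT D1 lists, Myl2 a promoter member in 1, and Mylpf a member at its start in both CTL lists and neither MR list, and none of these was in a KO list. Other sarcomere members at a promoter included those of Myom3 (an M-band protein) and Unc45b (a myosin chaperone), each in all 4 WT D1 lists and no KO list. Hspb3, a small heat shock protein of muscle, had a member 672 bp from the gene in all 4 WT D1 lists and in KO_1 CTL. Mybpc2, fast myosin-binding protein C, was the only listed sarcomere gene whose member KO_2 called at D5, in CTL, and KO_1 called that member at D0 already. A second member nearest to Lmod2, over 10 kb away and so outside the count of the list, was in both KO_2 D5 lists.

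Of 30 myogenic transcription factors and cofactors, 6 had a member nearby: Myod1, Myog, Mef2d, Tead4, Vgll4 and Nfix. Tead4, a TEAD factor that binds MCAT elements, held the member of rank 2, chr6:128236610-128236942, in all 4 WT D1 lists and in KO_1 in both media, and a second at rank 18 in all 4 WT D1 lists and no KO list. The Nfix member, in a gene of the switch from embryonic to fetal muscle, ranked 6 and was in all 4 WT D1 lists and KO_1 CTL. The member in Vgll4 was in 3 WT D1 lists and that near Mef2d in none, and neither was in a KO list.

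Myog, the gene of myogenin, had a member over its promoter at chr1:134289601-134290070, which also covers the start of the antisense transcript Myoparr. It was in all 4 WT D1 lists and no KO list of any day, with folds of 5.01, 4.19, 4.11 and 4.36 at D1 and 3.62, 3.47, 3.79 and 3.44 at D5 in WT. Further members lay 1856 bp and 9996 bp past the gene, the first in 3 WT D1 lists, the second in all 4 and in KO_1 MR. The second lies in the body of another gene, Ppfia4. Myod1, the gene of MyoD, had a member 5044 bp from the gene at chr7:46371180-46371429, rank 87, which was in no D1 list and no KO list, with D5 folds of 4.57, 4.17, 4.76 and 4.58. It overlaps the promoter window of the noncoding gene Gm45923. A second member nearest to Myod1 lay 11962 bp from the gene and so outside the count of the list. At D1 that second member was in WT CTL replicate 1 alone, and no KO list called it.

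**Figure D4:**
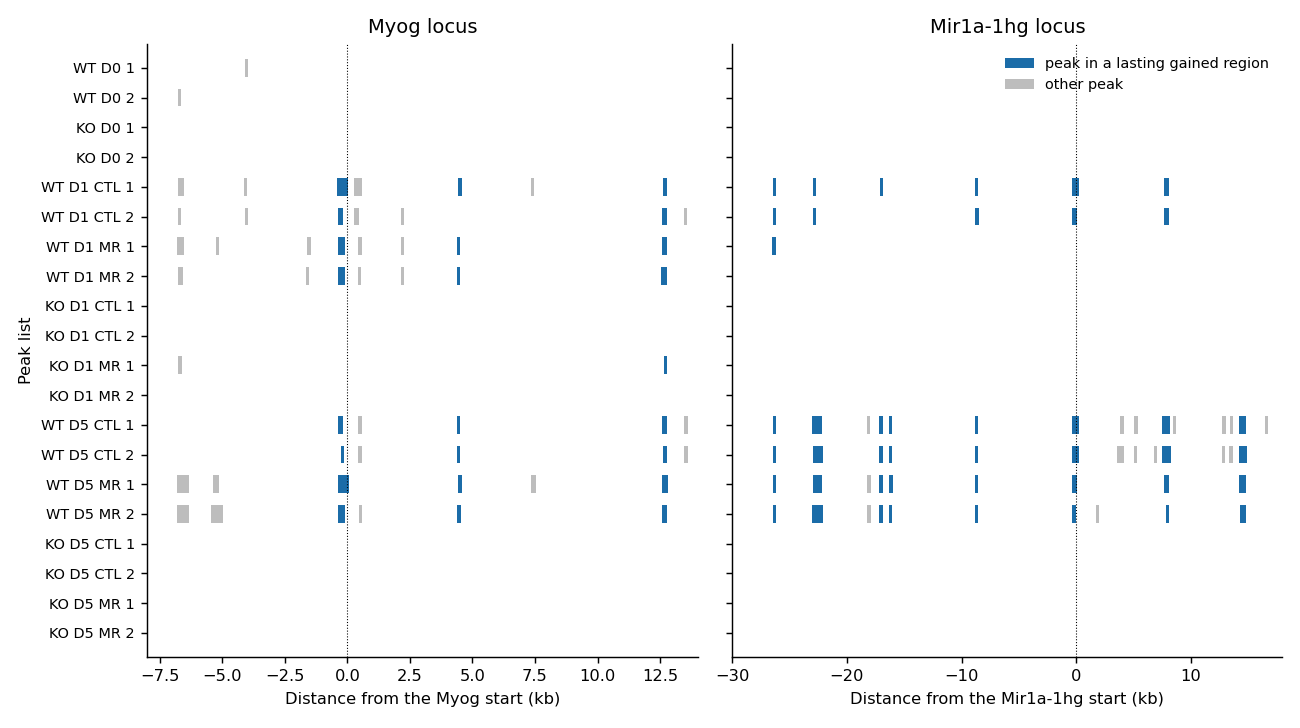
Peaks of all 20 lists (y axis) by distance from the start of Myog (left) and of Mir1a-1hg (right) in kb (x axis), blue where the peak lies in a member and grey elsewhere; peaks narrower than the smallest visible mark are widened about their middle. At Myog 1 KO peak falls in a member, and at Mir1a-1hg no KO list has a peak.

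The chain with the most members lay on chromosome 2 around Mir1a-1hg, the host transcript of the muscle microRNAs miR-1 and miR-133a. Its 8 members span chr2:180359176-180400499 and the nearest protein-coding gene is Gata5 for 7 and Slco4a1 for 1. A member covers the Mir1a-1hg promoter window. In WT at D1, 5 of the 8 were in both CTL lists and 0 in both MR lists, where only 1 member was called, by replicate 1. None of the 8 was in a KO list of any day. The other host gene of these microRNAs, Mir133a-1hg on chromosome 18, overlapped 2 members, 1 in both CTL lists and neither MR list and 1 in no D1 list. The member nearest to Mir206 and Mir133b, another muscle pair, was 45.2 kb from Mir206, in all 4 WT D1 lists and 2 KO D1 lists.

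Genes of excitation-contraction coupling had a member nearby in 8 of 31 cases. The Cacna1s promoter, of the voltage sensor of the transverse tubule, carried a member in all 4 WT D1 lists and no KO list. Casq2, which buffers calcium in the reticulum, had a promoter member of the same pattern and a second that KO_1 CTL also called. Hrc, a calcium-binding protein of the reticulum, had a member 29 bp from the gene in all 4 WT D1 lists and no KO list. A member in each of Jph2 (a junctophilin), Tmem38a (a cation channel of the reticulum) and Camk2b (a calmodulin-dependent kinase) was in all 4 WT D1 lists and in KO_1 CTL, that of Camk2b also in KO_1 MR. Atp2a1, the fast muscle calcium pump, had a member in no D1 list, and a member in Itpr1 was in all 4 WT D1 lists and no KO list.

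At the neuromuscular junction, 3 of 14 genes had members. The acetylcholine receptor genes Chrnd and Chrng, which are neighbours, shared 2, of which the one of rank 21 was in all 4 WT D1 lists, both KO lines in CTL and KO_2 in MR. Scn4a had 4 members within 27.0 kb, none in a KO D1 list, 2 in all 4 WT D1 lists and 1 in both CTL lists only. Of 27 fusion and membrane repair genes, 4 had members. The 2 members near Mymk (myomaker, a fusion protein) were in all 4 WT D1 lists, 1 of them also in KO_1 CTL. The promoter member of Cav3 was in WT D1 CTL replicate 1 alone at D1 and in no KO list. In Myof (myoferlin) the member was likewise in that 1 list. The member in Stab2, the stabilin-2 receptor, was in 3 WT D1 lists, in all 4 KO D1 lists, in both KO_2 D5 lists, in KO_1 at D5 in MR and in KO_1 at D0. It was the only member near a listed gene that all 4 KO D1 lists called.

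Energy metabolism genes had a member in 6 of 20 cases. Mb, myoglobin, had 4 members within 14.3 kb, 3 of them in all 4 WT D1 lists and 1 of these in KO_1 CTL. The promoter member of Pygm, glycogen phosphorylase, and the member in Pfkm, phosphofructokinase, were in both CTL lists and 1 MR list of WT at D1, and KO_1 CTL also called the latter. Art1 had a promoter member in both CTL lists and no MR list. The dystrophin complex had 1 of 12 (Dtna), cell cycle exit 1 of 12 (Cdkn1a) and the H3K36 methylation enzymes 0 of 13. Cdkn1a, whose protein stops the cell cycle before fusion, had 3 members within a chain of 6 on chromosome 17. The one of rank 642, at an end of the gene, was in all 4 WT D1 lists and 3 of 4 KO D1 lists, and the other 2 were in no KO D1 list.

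Markers of cell types were read in the same way. Of 6 skeletal muscle markers 5 had a member within 10 kb, of 6 smooth muscle markers 1 (Smtn), and of 6 each for adipocytes, osteoblasts, blood cells, neurons and endothelium 0, where all protein-coding genes gave 2.7%. Within 50 kb, 2 smooth muscle markers and 1 blood cell marker had a member. In bulk libraries, more cells of a type and more open chromatin per cell cannot be told apart.

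The 10 highest ranked members also include regions at genes outside the lists. That of Wnt6, a Wnt ligand, lay at an end of the gene and was in all 4 WT D1 lists and 1 KO D1 list, as was that in Ube4b, a ubiquitin ligase. The member in Rbm24 was in all 4 WT D1 lists and 2 KO D1 lists, and that 28989 bp from Neb, the thin filament ruler nebulin, in all 4 and 1. The member of rank 9 was 110953 bp from Sec61b, in 2 WT D1 lists and no KO D1 list. Of the 10, 7 were in all 4 WT D1 lists with at least 1 KO D1 call. Behind Myh3 and Tead4, the highest ranked members in all 4 WT D1 lists and no KO list were in or near Mad1l1, Scrib, Sap30bp, Chit1, Map2k2, Akt1, Ddc and Tnnc1, which include kinases of growth factor signalling (Map2k2, Akt1), a spindle checkpoint protein (Mad1l1) and a polarity protein (Scrib).

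A small set was open in KO as well. All 4 KO D1 lists called 44 members (6.28%, background 3.25%), 33 of which all 4 WT D1 lists also called (4.71%, background 0.359%), and 24 were in both KO_2 D5 lists too (3.42%, background 1.29%). The highest ranked of those 24 were in or near Acaca (acetyl-CoA carboxylase, of fatty acid synthesis), Nfib (a transcription factor), Cmip, Dclre1b, Lzts1, Adamts2 (a procollagen protease), Aldh8a1, Sh3pxd2a (a podosome scaffold), Arap1 and Wiz. Of these 10 members 9 were in all 4 WT D1 lists, and that near Aldh8a1 was in none. Acaca had folds of 7.95 and 8.60 in the KO D1 CTL lists and 5.38 and 10.2 in the MR lists. None of the 10 nearest genes is in a muscle list.

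Some members were called at D5 and not at D1. No D1 list of either genotype called 52 members (7.42%, background 15.2%). Their nearest genes, for the highest ranked, were Myod1, Pkdcc (a secreted kinase), Myoz1 (a Z-disc protein), A1bg, Slc6a6 (the taurine transporter), Nsmaf, Gm40011, Lif (a cytokine), Zfp36l1 (an RNA decay factor) and Dhrs2. Of these 52, 1 (1.92%) was within 1 kb of a gene end and 14 (26.9%) were in a gene body. Among the 150 members in all 4 WT D1 and no KO D1 list, 19 (12.7%) and 95 (63.3%) were.

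Members that ranked higher at D5 were also called more at D1. In the 351 higher ranked members the WT D1 lists called 92.9% and 83.5% in CTL and 86.0% and 79.5% in MR, and in the 350 lower ranked 74.6%, 61.1%, 66.3% and 56.9%. For KO_2 at D1 the values were 17.1% and 9.97% in the higher and 16.3% and 9.71% in the lower ranked members, and for KO_1 48.4% and 36.8% against 39.7% and 25.1%. The peak strength used for this order comes from the WT D5 lists, whose calls chose the members. No background share was computed for either set, so these values are a description.

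By position, members lay inside genes and away from their ends. Of the 701, 392 (55.9%) lay in the body of a protein-coding gene more than 1 kb from either end, 65 (9.27%) within 1 kb of an end, 84 (12%) outside genes at 1 to 10 kb, 123 (17.5%) at 10 to 100 kb and 37 (5.28%) beyond 100 kb. Kept regions were at gene ends in 39.6% and in gene bodies in 35.9%, and the background regions in 8.96% and 47.8%. The median distance of a member to the nearest gene end was 15482 bp, against 3868.5 bp for kept regions, 20063 bp for the background and 15094.5 bp for all regions. A RefSeq promoter window was overlapped by 6.42% of members, 34.1% of kept regions and 3.03% of the background.

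**Figure D5:**
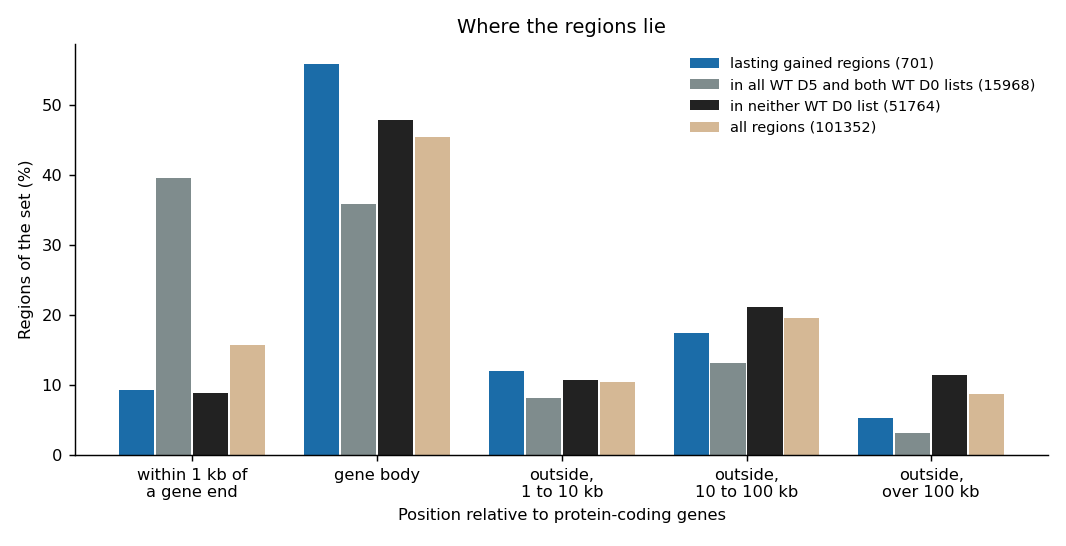
Percent of regions (y axis) by position relative to protein-coding genes (x axis) for the 701 members, the kept regions, the regions in neither WT D0 list and all regions (colours). The members follow the regions in neither WT D0 list, with 55.9% in gene bodies, while 39.6% of kept regions lie within 1 kb of a gene end.

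The spacing of members is given as counts without a background. Another member lay within 50 kb of 234 (33.4%), and 25 chains of 3 or more held 96 members (13.7%). Of 568 nearest genes, 468 had 1 member, 77 had 2 and 23 had 3 or more. After Gata5 with 7, the genes nearest to 4 were Bod1, Cryaa, Mb, Myh3, Scn4a and Zc3h3, and those with 3 that follow in alphabetical order were Acta1, Adamts14 and Ccdc141. On chromosome 1, Myog lies in a chain of 5 members with Ppfia4 and Tmem183a, and Mybph in a chain of 5 with Chit1, Chil1 and Adora1. None of the 5 members of the Mybph chain was in a KO D1 list. In WT at D1, 2 of the 5 were in both CTL lists and 2 in both MR lists. By chromosome, members were most frequent on chromosomes 2 and 11 (65 each) and 1 (64), and least on X (5) and 9 (11), where 9.27%, 9.27%, 9.13%, 0.713% and 1.57% of members compare with 7.6%, 7.37%, 7.15%, 1.6% and 4.74% of all regions.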

How the data were processed

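ATAC-seq libraries of C2C12 cells were analysed from 20 deposited broadPeak lists, 1 per library, 2 libraries in each of 10 groups. Per the submitters' processing notes the build is GRCm38. The aligner, peak caller, read shift and duplicate handling are not given in the sources used here. Each deposited list holds the authors' score, a fold enrichment (ratio over background), and −log10 p-values and −log10 q-values per peak. The lowest −log10 q-value was 1.00. Read depth is unknown here, so list length (644 to 69881 peaks) stands for it.

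Peaks were merged at 1 bp with Python 3.11.15, NumPy 2.4.6 and pandas 2.3.3, and a region was called in a list that overlapped it. Genes and promoter windows came from RefSeq tables of GRCm38.p6, the gene table without strand, and 21627 protein-coding genes were used. No genome sequence was used, so motifs were searched in promoters only. The region by region tests at D1 were two-sided exact permutation tests over 8 libraries with Benjamini-Hochberg adjustment at 0.05, tested on simulated data. WT labels do not name separate cultures, so p-values may measure technical spread only. Alternatives covered overlap, thresholds, list length, merging, left-out replicates and pairing. The numbers do not pair WT libraries: same-numbered deviations correlated at 0.045 between media in WT and 0.396 in KO, where the number is the line.

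The members, gene lists and marker lists were chosen with earlier results of these data known. The result of 1 gene list is not reported here. Members were ranked by the mean over WT D5 lists of the percentile of their peak by fold. Named were the 10 highest ranked, the 10 highest in all 4 WT D1 and no KO list, in all 4 KO D1 and both KO_2 D5 lists, and in no D1 list, the 10 genes nearest to the most members, up to 8 genes per list, and members within 1 kb of a listed gene's end. Members called in 1 medium, or in KO alone, were named after their values were seen.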

Additional observations from a re-analysis of the deposited data

How the results depend on the processing

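Of 112 alternative values, 37 moved and 75 stayed within 1.5 times the reported count or within the 95% Wilson interval of the reported percent. Of the 75, 24 are counts of 0 in the adjusted tests, 12 of them from designs too small to pass, and 10 are identical values with a KO line left out. The number of members, 701, was 365 when peaks had to cover 50% of a region, 256 with −log10 q-values of at least 5 and 1408 with the 20000 strongest peaks per list. At 50% coverage both lists called 60.3% (WT D1 CTL), 58.9% (WT D1 MR) and 8.22% (KO D1 CTL), over a background of 6.52%, 19.4% and 6.0%. At −log10 q of 5 the values were 11.3% for KO D1 CTL, 4.69% for KO_2 D5 CTL and 3.12% for KO_2 D5 MR, over a background of 6.56%, 3.29% and 1.67%. With the 20000 strongest peaks they were 30.3%, 27.7%, 11.3% and 18% for WT D1 CTL, WT D1 MR, KO D1 CTL and KO D1 MR (background 7.61%, 8.02%, 5.72% and 8.98%). They were 25.1% and 30.5% for KO_2 D5 CTL and MR (background 24.4% and 27.7%), and 18.6% for gene ends. With members from the full lists and the 30000 strongest peaks for later calls, chosen after seeing the data, both lists called 32% (WT D1 CTL), 14.4% (WT D1 MR), 4.14% (KO D1 CTL) and 4.99% (KO D1 MR). The background was 1.97%, 1.53%, 1.6% and 2.13% in the same order. The cause of these shifts was not tested beyond the smaller number of peaks.

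With each WT replicate or KO line left out in turn, the number of members was 701 to 1740. The percent called in the remaining lists was 69.3% to 77.6% for WT D1 CTL, 66% to 82.1% for WT D1 MR, 15% to 44.1% for KO D1 CTL and 7.9% to 31% for KO D1 MR. The highest of these stood over a background of 30.4%, 48%, 37.8% and 24%. KO_2 at D5 gave 7.9% to 16.2% in CTL and 6.13% to 11.2% in MR, and gene ends 9.25% to 12%. The highest value came from leaving out WT replicate 2 for the WT, KO_2 D5 and gene end shares and KO_2 for the KO D1 shares. The tests had no value under 0.05 to reach with a replicate left out.

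Members at an unadjusted p of 0.0286 in the exact test with fewer calls in KO were 150, and 71 at 50% coverage, 64 at −log10 q of 5, 96 with the 20000 strongest peaks and 49 with the 30000 strongest, where 1 member had fewer calls in MR. No member passed the adjusted threshold for genotype or restriction under the alternatives of coverage, threshold, list length and merging. The replicate block gave 0 members, with a smallest exact p of 0.125 from 16 arrangements, and labels permuted within medium or genotype 0, with a smallest exact p of 0.0556, so neither could pass. Listed genes with a member were 53 within 10 kb, 22 within 1 kb of an end and 67 within 50 kb.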
